A study of Bos taurus with 6 samples.

Results

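AP-1 is a transcription factor built as a dimer of a JUN family protein with a FOS family or ATF family protein, and EGR1 is a zinc finger factor that is switched on by many of the same signals. The 9 genes described here are the FOS family genes FOS, FOSB, FOSL1 and FOSL2, the JUN family genes JUN, JUNB and JUND, the ATF family gene ATF3, and EGR1. They are 9 of the 17663 genes in the authors' table. They were chosen from the measured FT and WT values of these same libraries, so their differences between FT and WT cells are given as a description. How many of them passed a threshold is given only beside the same share of all genes.

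RNA was measured in bovine fetal fibroblasts (bEFs), primary cultures of connective tissue cells grown from cattle fetuses aged 50–60 days. The FT cells were from 3 fetuses with the fat-1 transgene, which encodes a worm desaturase that makes n-3 from n-6 polyunsaturated fatty acids, while 3 wild-type fetuses of Luxi cattle gave the WT cells. From each fetus came 1 poly(A) RNA library, called FT_1 to FT_3 or WT_1 to WT_3, and n = 3 in each group. The question was which transcripts differ between FT and WT cells. Every FT fetus was transgenic and no fetus gave cells of both kinds, so the transgene and other differences between the fetuses cannot be told apart.

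Many, but not all, genes of the FOS, JUN and EGR families are immediate early genes. Growth factors, serum, stretch and stress raise the transcripts of such genes within minutes, without new protein synthesis. These signals act through RAS and MAP kinases and the factors SRF and CREB. The FOS proteins cannot pair with themselves and need a JUN partner, and the makeup of the dimer sets which genes are activated or held back. In fibroblasts these factors are known for linking growth factor signals to the cell cycle, to matrix proteins and to the proteases that break matrix down.

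The libraries held 63366834 (FT_1), 48167642 (FT_2) and 54204446 (FT_3) counts for FT cells and 69777641 (WT_1), 51310741 (WT_2) and 54271927 (WT_3) counts for WT cells. Library FT_1 stood apart from the other FT libraries. The biological coefficient of variation, the between-library spread of expression that counting noise does not give, was 56.9% between FT_1 and FT_2 and 57.6% between FT_1 and FT_3. The pair FT_2 and FT_3 had 8.23%, and the WT pairs had 9.99–13.4%. FT_1 was also the library with the most epithelial transcripts. The 8 epithelial markers summed to an FPKM (fragments scaled by gene length and library total) of 442 in FT_1, 16.2 and 15.8 in FT_2 and FT_3, and to 10.3, 7.92 and 14.2 in the WT libraries. Keratin KRT5, the most abundant of them, stood at 172 FPKM in FT_1 against 2.57 and 1.63 in FT_2 and FT_3 and was at 0 in every WT library, as were KRT8, KRT14 and KRT18, while EPCAM was at 0 in all libraries but FT_1. Nearly all of the WT sum was CDH1, at 10.0, 7.83 and 13.9 FPKM in WT cells against 36.3, 7.11 and 8.41 in FT cells. CLDN4 did not set FT_1 apart, at 3.65, 3.39 and 3.82 FPKM in FT cells against 0.2, 0.09 and 0.33 in WT cells.

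Fibroblast transcripts were abundant in all libraries, with the lowest sum in FT_1. The 11 fibroblast markers, led by vimentin (VIM), summed to an FPKM of 8603 in FT_1, 20086 and 19381 in FT_2 and FT_3, and to 21669, 21226 and 21466 in WT cells. Single markers moved apart within that sum. VIM was lower in every FT library (1244, 3850 and 4171 against 7312–8178 in WT cells), and so was S100A4 (1775, 3039 and 2598 against 3848–4106). DCN (4092 and 3769) and LUM (2759 and 2559) were higher in FT_2 and FT_3 than in WT cells (2054–2299 and 1117–1224) and lower in FT_1 (1803 and 551). Summed smooth muscle markers separated the groups in every library. The 7 markers, led by ACTA2, came to an FPKM of 2521, 3819 and 3673 in FT cells against 1108, 1088 and 1216 in WT cells, and 6 of 7 rose in edgeR's quasi-likelihood test on the counts (7 of 7 without FT_1), beside 20.1% (30.6%) of all tested genes. The other gene, MYH11, was at 0.07 FPKM in FT_1, below the WT libraries (0.12–0.18), and at 1.58 and 1.46 in FT_2 and FT_3. Mesothelial markers, nearly all of it MSLN, summed to 201, 45.0 and 46.3 in FT cells against 2.34, 3.51 and 3.38 in WT cells, and the defining marker WT1 was at 0 in every FT library and at 0.03–0.05 in WT cells, from 4 to 7 reads. UPK3B (1.03 in FT_1) and BNC1 (1.52) were high in FT_1 only, with 0.09–0.1 and 0 in FT_2 and FT_3, below the WT libraries (0.2–0.25 and 0.02–0.04). The summed adipocyte markers went the other way, with values of 1.52, 10.9 and 11.9 in FT cells against 144, 132 and 147 in WT cells. FABP4, at 140, 128 and 143, was most of the WT sum, and in FT cells it stood at 0.08, 4.67 and 5.95. CIDEC measured 0.08, 0 and 0 in FT cells against 2.57, 3.2 and 2.27 in WT cells. ADIPOQ was at 0 in every FT library and at 0.28, 0 and 0.07 in WT cells. LEP did not share this direction, at 0.03, 4.91 and 4.45 FPKM in FT cells against 0.09, 0.07 and 0.02 in WT cells, nor did PLIN1, at 1.31–1.49 FPKM in FT cells against 1.23–1.27 in WT cells. The summed FPKM of endothelial, immune, skeletal muscle, cartilage and neural markers was at most 15.0 in any library. In bulk RNA, fewer cells of a type and less RNA per cell cannot be told apart, and the part of these markers in the levels that follow was not tested.

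**Figure D1:**
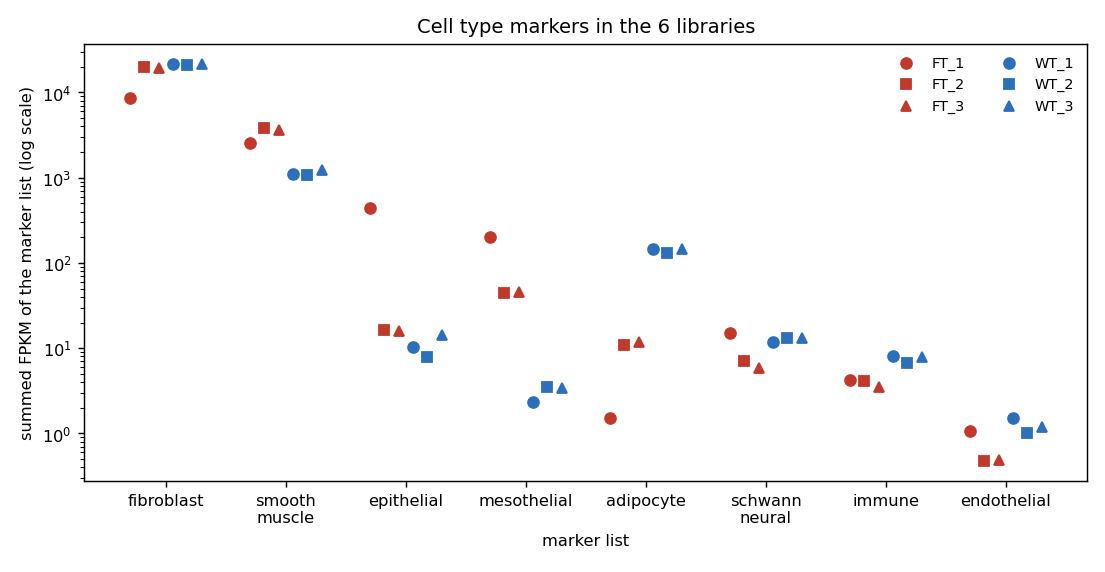
Summed FPKM of each list of cell type markers (y axis, log scale) in the 6 libraries, FT in red and WT in blue, 1 point per library. FT_1 lies apart for the epithelial list (442 against 7.92–16.2 in the other libraries) and the fibroblast list (8603 against 19381–21669), and FT and WT libraries separate for the smooth muscle, mesothelial and adipocyte lists.

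By FPKM in every library, FOS, JUNB and JUND were higher in FT cells, ATF3 and FOSL1 were lower, and FOSL2, JUN, FOSB and EGR1 overlapped between the groups. In FPKM every FT library lay above every WT library for 3 genes and below for 2, where 21.8% and 36.9% of the 13482 tested genes did so. In edgeR's fit over all genes, 3 of the 9 (FOS, JUNB and JUND) were called higher and 1 (ATF3, not FOSL1) lower at an adjusted p under 0.05, beside 20.1% and 18.9% of all tested genes. Without FT_1, which added EGR1 and FOSL1, the numbers were 4 and 2, beside 30.6% and 31.5% of 13765 genes. Without any other 1 library, where JUND was not called, they were 2 and 1. Beside them stood 1516–2151 genes higher and 1531–1998 lower of the 13804–13849 tested in those fits. All 9 passed the filter on low counts. Since the genes were chosen from this contrast, nothing is read from these shares. The median log2 fold change was 0.57 over the 9 genes and 0.03 over all tested genes. The former is the value of FOSB, a gene with few reads, and without WT_3 the median of the 9 was 0.26.

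The order of the levels per length differed between the groups. By mean FPKM in WT cells the order was JUNB (66.5), EGR1 (60.6), FOSL1 (45.0), FOSL2 (41.5), JUND (34.1), JUN (33.0), ATF3 (24.8), FOS (7.06) and FOSB (0.24). The ranges over WT libraries overlapped between JUNB and EGR1, between FOSL1 and FOSL2, and between JUND and JUN. In FT cells the order by mean FPKM was JUNB (171), EGR1 (88.5), JUND (55.5), FOS (42.1), FOSL2 (42.1), JUN (28.3), FOSL1 (17.1), ATF3 (5.94) and FOSB (0.32). There, JUNB lay above all the others in every library, EGR1, JUND, FOS and FOSL2 overlapped as neighbours in the order, and JUN overlapped with FOSL1.

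**Figure D2:**
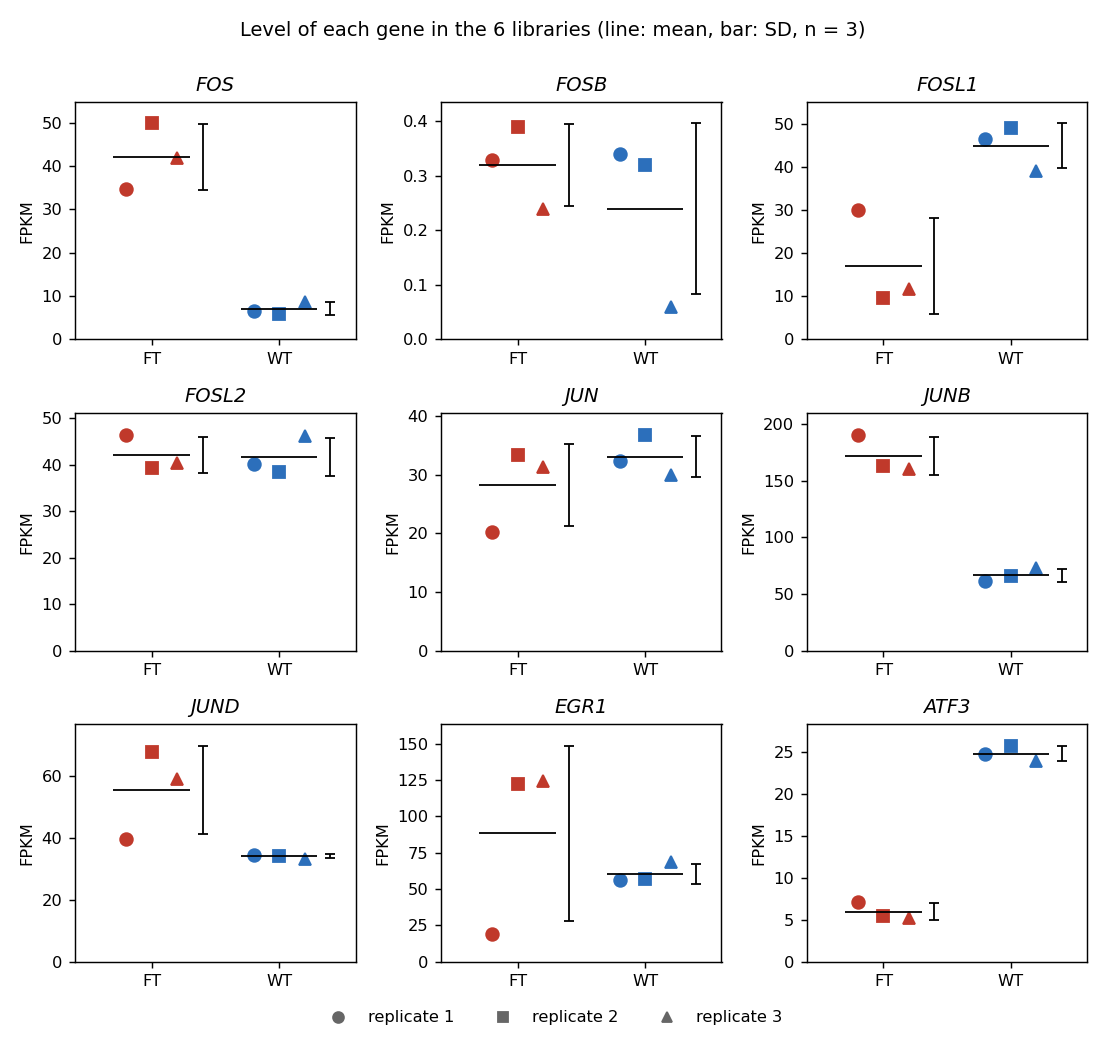
FPKM (y axis) of the 9 genes in FT (red) and WT (blue) libraries, 1 point per library with a symbol for each replicate number, the group mean as a line and the SD as a bar (n = 3). FOS, JUNB and JUND lie higher in all FT libraries and FOSL1 and ATF3 lower, while EGR1 is at 19.0 in FT_1 and at 122 and 124 in the other FT libraries.

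FOS, the founding FOS family gene, whose transcript is short-lived, lies on chromosome 10 (ENSBTAG00000004322, 86488645 to 86492108, plus strand; positions here are those of the authors' table). In FPKM it stood at 34.7 in FT_1, 49.9 and 41.8 in FT_2 and FT_3, against 6.56, 5.87 and 8.75 in WT cells. All FT libraries were far above all WT libraries, and FT_1 was the lowest of them. Mean FPKM came to 42.1 ± 7.58 (SD, n = 3) for FT cells against 7.06 ± 1.5 for WT cells, a ratio of 5.97. On the counts, the log2 fold change was 2.74 with a standard error of 0.22, and 2.87 with a standard error of 0.15 without FT_1. FOS moved from the top 39.5% of genes by mean FPKM in WT cells to the top 8.57% in FT cells. Between 658 and 5257 reads were counted for it in a library, so counting noise was small beside the difference.

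FOSL1 encodes FRA1, a FOS family protein without the strong activation domain of FOS, and its gene is itself a target of AP-1 (ENSBTAG00000006194, chromosome 29, 44006997 to 44013529, minus strand). In FPKM it stood at 30.0 in FT_1, 9.57 and 11.7 in FT_2 and FT_3, against 46.6, 49.1 and 39.2 in WT cells. The groups did not overlap, but FT_1 lay between the other FT libraries and the WT libraries. The log2 fold change was -1.24 with a standard error of 0.43, and -1.90 with a standard error of 0.12 without FT_1. FOSL1 overlaps a gene on the other strand, ENSBTAG00000049377, with a mean FPKM of 0.373 in FT cells against 0.703 in WT cells. Whether the counting used strand is not given in the sources used here.

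FOSL2, which encodes FRA2, was level between the groups (ENSBTAG00000023929, chromosome 11, 71340649 to 71360069, minus strand). Its FPKM was 46.5, 39.4 and 40.4 in FT cells against 40.1, 38.3 and 46.1 in WT cells. The libraries were mixed, with the highest value in FT_1 and the lowest in WT_2. Its log2 fold change was 0.18 with a standard error of 0.11, and 0.03 where the counts were scaled by library totals only. FOSB, the remaining FOS family gene, was close to the limit of detection (ENSBTAG00000008182, chromosome 18, 53074888 to 53081288, plus strand). Its FPKM was 0.33, 0.39 and 0.24 in FT cells against 0.34, 0.32 and 0.06 in WT cells, from 12 to 78 reads per library. The lowest value was that of WT_3, and no difference between the groups was called (log2 fold change 0.57, SE 0.63). Leaving out 1 library moved that value between 0.12 (without WT_3) and 0.88 (without WT_1).

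Taken as a family, the FOS genes had about the same summed FPKM in both groups but a different makeup. FPKM is scaled by library total only. The scaling factors of edgeR (TMM) were 0.934–0.968 in FT and 1.05–1.06 in WT libraries. Scaled by them, the FT sums would lie higher beside the WT sums than given here. Their summed FPKM was 111 in FT_1, 99.2 and 94.1 in FT_2 and FT_3, against 93.6, 93.7 and 94.1 in the WT libraries. FOS made up 31.1%, 50.3% and 44.4% of that sum in FT cells against 7.01%, 6.27% and 9.30% in WT cells. FOSL1 made up 26.9%, 9.65% and 12.4% in FT cells against 49.8%, 52.5% and 41.6% in WT cells. The FOSL2 share was 39.7–42.9% in FT cells against 40.9–49.0% in WT cells. The ratio of FOS to FOSL1 in FPKM was 1.16 in FT_1, 5.21 and 3.57 in FT_2 and FT_3, against 0.141, 0.119 and 0.223 in WT cells. FOS thus exceeded FOSL1 in every FT library and FOSL1 exceeded FOS in every WT library, with FT_1 nearest to equality.

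**Figure D3:**
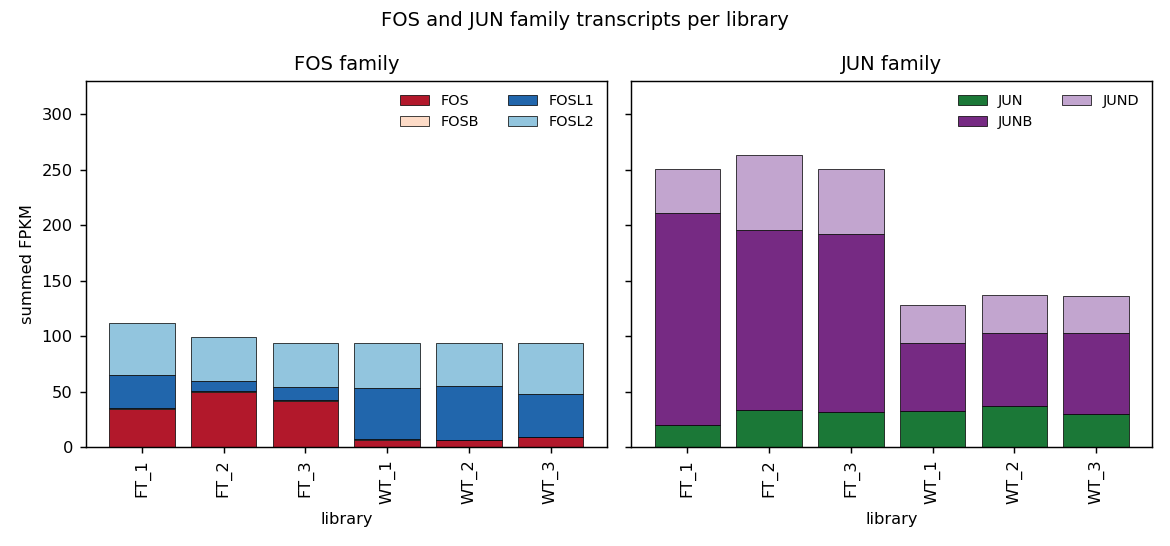
Summed FPKM (y axis) of the FOS family (left) and JUN family (right) in each library (x axis), with each gene's part as a coloured segment. The FOS family sums to 93.6–111 in all libraries with FOS in place of much of FOSL1 in FT cells, and the JUN family sums to 251–264 in FT cells against 128–137 in WT cells, mostly through JUNB.

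JUNB encodes a JUN protein that activates transcription less than JUN and can restrain it, and it had the highest mean FPKM of the 9 genes in both groups (ENSBTAG00000012046, chromosome 7, 12736091 to 12737893, minus strand). Its FPKM was 191, 163 and 161 in FT cells against 61.2, 65.6 and 72.7 in WT cells. All FT libraries were well above the WT libraries, FT_1 with the others. Mean FPKM came to 171 ± 16.8 (SD, n = 3) for FT cells against 66.5 ± 5.78 for WT cells, a ratio of 2.58. Fitted to the counts, the difference was 1.52 (log2) with a standard error of 0.11, and 1.45 with a standard error of 0.08 without FT_1.

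JUND is the JUN family gene usually expressed most steadily (ENSBTAG00000052791, chromosome 7, 4912209 to 4913960, plus strand). In FPKM it stood at 39.7 in FT_1, 67.7 and 59.1 in FT_2 and FT_3, against 34.6, 34.3 and 33.4 in WT cells. The WT libraries were nearly alike, and FT_1 was only a little above them. The log2 fold change was 0.86 with a standard error of 0.20, and 1.06 with a standard error of 0.07 without FT_1. The lowest value over the 6 fits that left out 1 library was 0.70, without FT_2. Only 1 of those fits called JUND, the one without FT_1.

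JUN, the strongest activator of the family and the main partner of FOS, overlapped between the groups (ENSBTAG00000004037, chromosome 3, 87265962 to 87268007, plus strand). In FPKM it stood at 20.2 in FT_1, 33.3 and 31.2 in FT_2 and FT_3, against 32.3, 36.8 and 30.0 in WT cells. Only FT_1 lay outside the WT range, below it. Its fitted difference was -0.06 (log2) with a standard error of 0.21, and 0.14 with a standard error of 0.09 without FT_1.

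The summed FPKM of the JUN family was 251, 264 and 251 in FT cells against 128, 137 and 136 in WT cells. Here, unlike in the FOS family by the same deposited FPKM, both the sum and the makeup differed. JUNB made up 61.7–76.1% of the sum in FT cells against 47.8–53.4% in WT cells, and JUN made up 8.08–12.6% and 22.0–26.9%. The sum of the JUN family was 2.25, 2.66 and 2.67 times that of the FOS family in FT cells and 1.37, 1.46 and 1.44 times in WT cells.

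ATF3, a stress-induced factor that acts mostly as a repressor when paired with itself and can also pair with JUN proteins, was lower in FT cells (ENSBTAG00000008545, chromosome 16, 70924511 to 70937490, minus strand). Its FPKM was 7.09, 5.47 and 5.25 in FT cells against 24.8, 25.8 and 24.0 in WT cells. The groups were far apart and the libraries within each group close together. Mean FPKM came to 5.94 ± 1.0 (SD, n = 3) for FT cells against 24.8 ± 0.901 for WT cells, a ratio of 0.239. The log2 fold change was -1.91 with a standard error of 0.13, and -2.04 with a standard error of 0.09 without FT_1.

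EGR1 was the gene on which FT_1 and the other FT libraries differed most (ENSBTAG00000010069, chromosome 7, 49825961 to 49830306, plus strand). In FPKM it stood at 19.0 in FT_1, 122 and 124 in FT_2 and FT_3, against 56.3, 57.1 and 68.4 in WT cells. FT_1 was the lowest and FT_2 and FT_3 were the highest of the 6 libraries. In counts scaled between libraries, EGR1 was 6.68-fold lower in FT_1 than in FT_2 and FT_3, and 6.02% of tested genes lay at least as far from them in FT_1. With all libraries the log2 fold change was 0.72, with a standard error of 0.65, and 1.19 with a standard error of 0.09 without FT_1. A direction for EGR1 in FT cells therefore rests on leaving out FT_1.

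**Figure D4:**
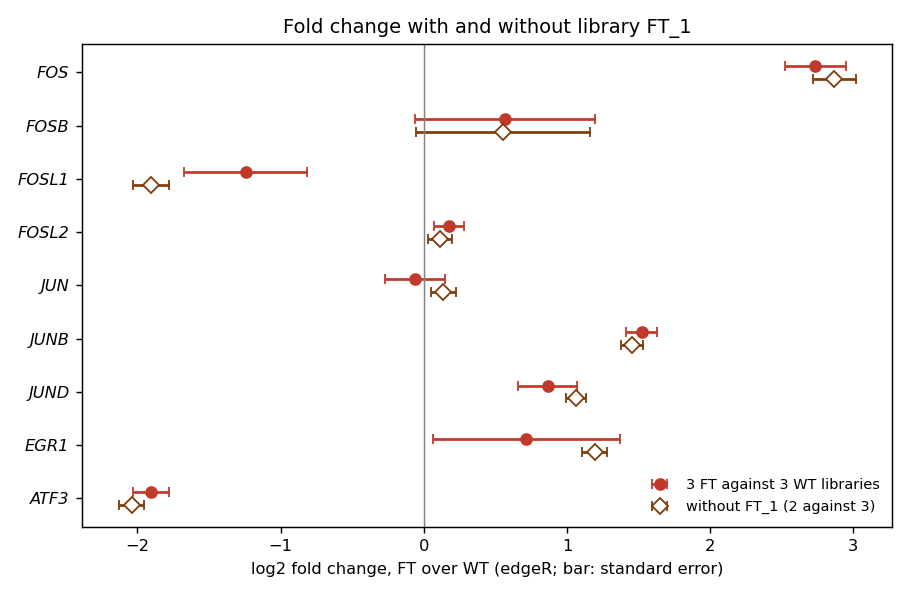
Log2 fold change of FT over WT (x axis, edgeR on the counts, bars are standard errors) for the 9 genes, with all libraries (filled circles) and without FT_1 (open diamonds). FOS, JUNB and ATF3 keep nearly the same value, while FOSL1 goes from -1.24 to -1.90 and EGR1 from 0.72 to 1.19, with smaller errors.

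The annotation columns of the table show what else the genes share. The KEGG pathway osteoclast differentiation held 7 of the 9, the whole FOS and JUN families, among its 105 genes in the table. The IL-17 signaling pathway held FOS, FOSB, FOSL1, JUN and JUND, and MAPK signaling held FOS, JUN and JUND. JUNB, JUND and EGR1 lie on chromosome 7. Of the 18 genes that flank the 9 on either side, 14 were tested, 5 rose (35.7%) and 3 fell (21.4%), beside 20.1% and 18.9% of all tested genes. JDP2, which encodes a repressor that pairs with JUN proteins, is the gene next to FOS, 118125 bases to its right.

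The genes whose pattern over the 6 libraries was nearest to each of 4 leading genes were found by the root mean square difference of centred log2 CPM, the counts scaled by library size. For FOS they were LTBP4 (0.134), CCN3 (0.135) and MYLK (0.144). LTBP4 measured 47.3, 63.8 and 69.6 FPKM in FT cells against 8.92, 8.42 and 11.0 in WT cells, the same split as FOS. For ATF3 they were CRISPLD2 (0.0766), GCSH (0.0766) and C17orf58 (0.0804), and CRISPLD2 measured 29.9–38.2 FPKM in FT cells against 141–154 in WT cells. Near to EGR1 were MIPOL1 (0.102) and HTR2A (0.102), both low in FT_1, and MIPOL1 reached 3.99 FPKM in FT_1 against 23.2 and 25.4 in FT_2 and FT_3, and 11.1–11.6 in WT cells. For JUN they were EMC2 (0.0461), STARD5 (0.0551) and CACYBP (0.0592), where FT_1 was again the lowest library.

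The partners of these factors and related basic leucine zipper (bZIP) genes moved in both directions. Of 28 such genes 26 were tested, of which 8 rose and 4 fell (30.8% and 15.4%, beside 20.1% and 18.9% of all tested genes). Their median log2 fold change was 0.37, beside 0.03 over all tested genes. Without FT_1, 11 rose and 8 fell (42.3% and 30.8%, beside 30.6% and 31.5%), and the median was 0.09 against -0.02. MAFK, a small MAF protein without an activation domain of its own, measured 14.7, 9.82 and 9.74 FPKM in FT cells against 3.26, 2.03 and 3.53 in WT cells. It rose by a log2 fold change of 2.10 (SE, the standard error, 0.30; adjusted p = 0.00355 from edgeR's quasi-likelihood test after Benjamini-Hochberg adjustment), higher in 3 of 3 FT libraries. ATF7, a CREB-like partner of JUN, rose by 1.08 (SE 0.16), and the endoplasmic reticulum stress sensors ATF6B and ATF6 rose by 0.61 (SE 0.10) and 0.59 (SE 0.11).

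DDIT3, which encodes the stress factor CHOP, measured 42.5, 46.6 and 51.2 FPKM in FT cells against 128, 130 and 134 in WT cells. All FT libraries lay below all WT libraries, as with ATF3. Its log2 fold change was -1.32 (SE 0.10, edgeR adjusted p = 0.000799). CEBPG and JDP2 fell by 0.38 and 0.53 on the log2 scale. The call was lost without WT_1 (-0.38) or with the replicate number as a block (-0.38) for CEBPG and without WT_1 (-0.51) or WT_3 (-0.52) for JDP2. ATF4, an inducer of ATF3 and DDIT3 and the partner gene with the highest mean FPKM, stood at 657 in FT_1, 367 and 393 in FT_2 and FT_3, against 527, 556 and 604 in WT cells. It did not pass the test with all libraries (log2 fold change -0.10, SE 0.23) and fell without FT_1 (-0.40, SE 0.08).

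The other immediate early genes also moved in both directions. Of 43 listed genes 40 were tested, 9 rose and 6 fell, with a median log2 fold change of 0.29. These are 22.5% and 15.0% of the list, near the 20.1% and 18.9% of all tested genes. Without FT_1, 19 rose and 13 fell (47.5% and 32.5%, beside 30.6% and 31.5% of all tested genes), and the median was 0.25. IER3, a survival gene, measured 143, 252 and 233 FPKM in FT cells against 77.5, 95.1 and 66.4 in WT cells, and rose by 1.56 on the log2 scale (SE 0.26, edgeR adjusted p = 0.00596). The antiproliferative gene BTG2 rose by 1.44 (SE 0.14), IER5L by 1.09 (SE 0.08), and ZFP36L1, which encodes a protein that speeds the decay of AU-rich mRNAs, by 1.64 (SE 0.20).

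KLF4, a Krüppel-like factor gene, went the opposite way to FOS. Its FPKM was 17.0, 19.5 and 22.6 in FT cells against 64.2, 65.6 and 63.1 in WT cells. The counts gave a fitted change of -1.55 in log2 (SE 0.13, edgeR adjusted p = 0.000952). Its relative KLF6 fell by 1.09 (SE 0.18), the Notch target HES1 by 0.91 (SE 0.15) and the survival gene MCL1 by 0.39 (SE 0.09). The call of MCL1 was lost without FT_2 (-0.40), WT_1 (-0.36) or WT_2 (-0.39), and with the replicate number as a block (-0.39). CCN2, a matrix-associated growth factor gene and the one with the highest mean FPKM, depended on FT_1. In FPKM it stood at 2030 in FT_1, 545 and 529 in FT_2 and FT_3, against 748, 705 and 703 in WT cells. The fold change (log2) of 0.67 (SE 0.54) did not pass the test, and that of -0.25 (SE 0.06) without FT_1 did.

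Further genes of this list were picked after their values were seen, because FT_1 parted from FT_2 and FT_3. EGR2, a close relative of EGR1, reached 1.37 FPKM in FT_1 against 5.92 and 6.22 in FT_2 and FT_3, and 3.02–3.49 in WT cells. The orphan receptor gene NR4A1 had 2.70, 12.3 and 11.0 in FT cells against 7.55–10.1 in WT cells, and its relative NR4A2 had 10.3, 30.0 and 26.1 in FT cells against 11.0–13.7 in WT cells. All 3 were lowest in FT_1 and highest in FT_2 and FT_3, the order seen for EGR1. PLK2, a kinase gene, showed the reverse, with an FPKM of 118 in FT_1, 4.35 and 5.08 in FT_2 and FT_3, against 33.2–37.4 in WT cells. Over the whole list FT_1 was the lowest of the 6 libraries for 14 of 40 genes (35.0%) and the highest for 11 (27.5%), beside 29.0% and 28.8% of all tested genes.

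The upstream list held receptors, RAS and MAP kinases and the factors that drive these promoters. Of 38 genes 37 were tested, 12 rose (32.4%, beside 20.1% of all tested genes) and 6 fell (16.2%, beside 18.9%), with a median log2 fold change of 0.23. Without FT_1, 20 rose (54.1%, beside 30.6%) and 6 fell (16.2%, beside 31.5%), and the median was 0.27. MAPK3, which encodes the kinase ERK1, measured 55.8, 55.5 and 55.1 FPKM in FT cells against 30.2, 29.9 and 31.2 in WT cells. FT_1 did not part from the other FT libraries here. MAPK3 rose by 1.03 on the log2 scale (SE 0.07, edgeR adjusted p = 0.000578), MAPK7, which encodes ERK5, by 1.58 (SE 0.15), the SRF coactivator gene MRTFA by 1.14 (SE 0.09) and the CREB coactivator gene CRTC2 by 1.07 (SE 0.10).

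Other genes of the same routes went down. NRAS, which encodes a small GTPase of the RAS family, measured 17.3, 18.4 and 21.4 FPKM in FT cells against 42.2, 42.0 and 38.0 in WT cells, a fall of 0.94 on the log2 scale (SE 0.11, edgeR adjusted p = 0.00225). MAP2K1, which encodes the ERK kinase MEK1, fell by 0.43 (SE 0.07), the JNK gene MAPK9 by 0.56 (SE 0.11) and the p38 gene MAPK14 by 0.49 (SE 0.12). The call was lost without WT_1 for MAPK9 (-0.48) and without FT_3 (-0.50), WT_1 (-0.48) or WT_2 (-0.44) for MAPK14. PDGFRA, a growth factor receptor gene that is also on the fibroblast list, had the highest mean FPKM of the upstream list. It stood at 218, 166 and 141 in FT cells against 93.5, 87.0 and 99.7 in WT cells and rose by 1.06 on the log2 scale (SE 0.17).

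Brakes on these factors, that is corepressors, phosphatases, mRNA decay factors and proteins that lead to degradation, were split. All 18 were tested, 7 rose (38.9%, beside 20.1% of all tested genes) and 6 fell (33.3%, beside 18.9%), with a median log2 fold change of -0.05. Without FT_1, 8 rose (44.4%, beside 30.6%) and 7 fell (38.9%, beside 31.5%), and the median was 0.12. NAB1, which encodes a corepressor that binds EGR1, measured 9.81, 9.18 and 8.87 FPKM in FT cells against 16.9, 16.4 and 17.5 in WT cells. It had a log2 fold change of -0.71 (SE 0.07, edgeR adjusted p = 0.00137) and FT_1 was with the other FT libraries. PDCD4, a translation inhibitor known to block AP-1 activity, fell by 1.14 (SE 0.09), and HNRNPD, an AU-rich mRNA binding protein gene and the most abundant brake, by 0.69 (SE 0.09). The ubiquitin ligase subunit gene DET1 rose by 0.92 (SE 0.12) and the MAP kinase phosphatase gene DUSP1 by 0.45 (SE 0.09). The call of DUSP1 was lost without WT_1 (0.44). DUSP1, ZFP36, ZFP36L1 and ZFP36L2 are on the list of immediate early genes as well, and JDP2 is on that of partners.

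**Figure D5:**
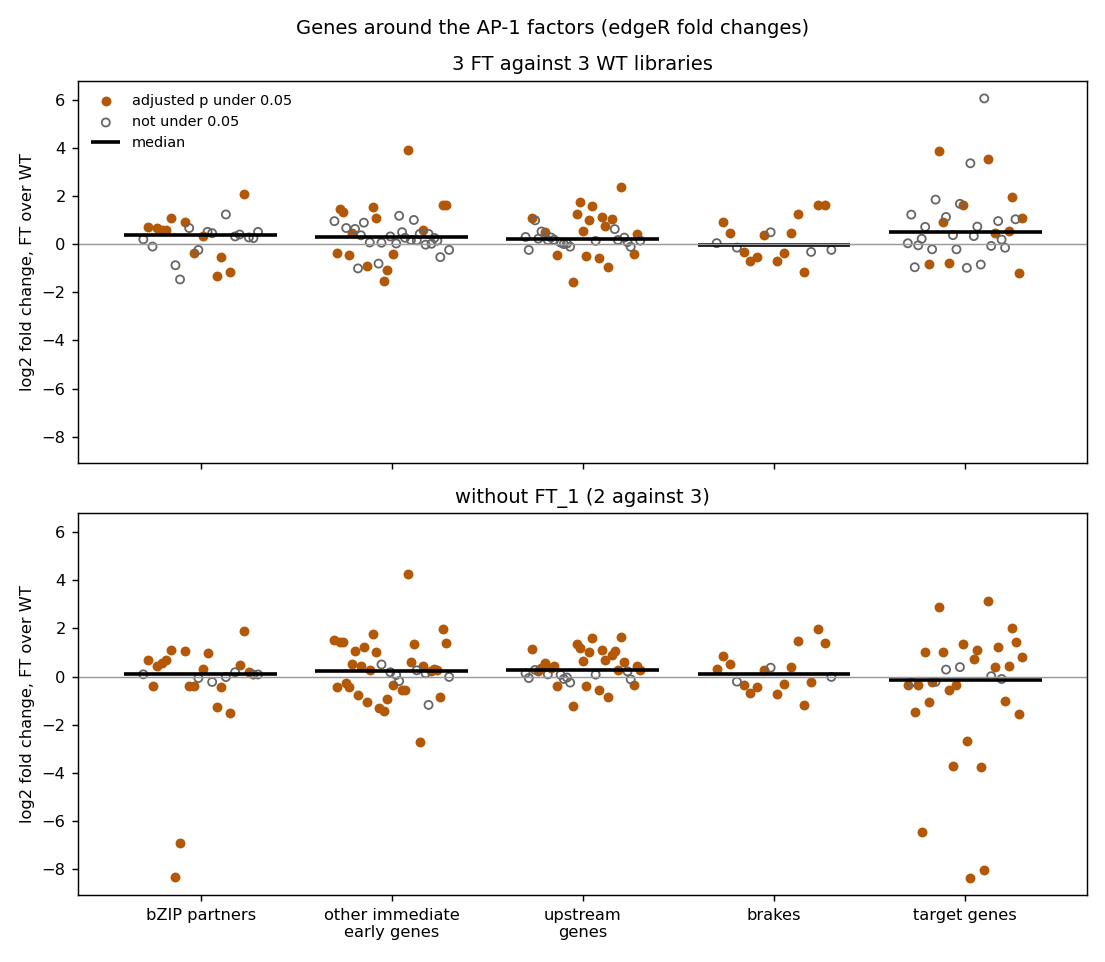
Log2 fold change of FT over WT (y axis, edgeR) for each tested gene of the 5 lists (x axis), with all libraries (upper panel) and without FT_1 (lower panel), filled where the adjusted p was under 0.05 and with the list's median as a line. Each list holds genes on both sides of 0, and the median of the target genes goes from 0.51 to -0.16 without FT_1. The 4 lowest genes without FT_1 (BATF2, BATF3, MMP9 and MMP13) had no count in FT_2 and FT_3, so their position is no measured fold.

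Known target genes of AP-1, ATF3 and EGR1 had a median that changed sign without FT_1. Of 38 genes 34 were tested, 8 rose (23.5%) and 3 fell (8.82%) with all libraries, beside 20.1% and 18.9% of all tested genes. Without FT_1, 13 rose (38.2%) and 15 fell (44.1%), beside 30.6% and 31.5%. The median log2 fold change was 0.51 with FT_1 and -0.16 without it. The genes that rose in both fits included matrix genes. Thrombospondin (THBS1), the target with the highest mean FPKM, stood at 6517, 6786 and 7022 in FT cells against 1815, 1726 and 2249 in WT cells, a rise of 1.97 on the log2 scale (SE 0.19, edgeR adjusted p = 0.00133). The growth factor gene PDGFA, a target of EGR1, rose by 3.54 (SE 0.42) from an FPKM of 0.20–0.39 in WT cells to 4.49, 2.10 and 2.37 in FT cells. The collagen crosslinking enzyme gene LOXL2 rose by 1.63 (SE 0.21) and fibronectin (FN1) by 3.89 (SE 0.67), or by 2.88 without FT_1 (SE 0.10), in which its FPKM was 7499 against 1780 and 1831 in FT_2 and FT_3.

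The 3 target genes that fell were EREG, an EGF receptor ligand gene (-0.83, SE 0.19), the pseudokinase gene TRIB3 (-1.18, SE 0.31) and the heme oxygenase gene HMOX1 (-0.79, SE 0.23). Without FT_1 their calls held, but they were lost without some other libraries. This held for FT_2 (-0.78), WT_1 (-0.88), WT_2 (-0.85) or WT_3 (-0.77) for EREG, for any 1 library but FT_1 for TRIB3 (-1.28 to -0.96), and for FT_2 (-0.90), WT_1 (-0.80), WT_2 (-0.81) or WT_3 (-0.76) for HMOX1. With the replicate number as a block it was lost for EREG (-0.85) and HMOX1 (-0.84). FT_1 was the highest of the 6 libraries for 19 of 34 targets (55.9%), beside 28.8% of all tested genes. The targets were not alone in this, as it was also the highest for 15 of 26 bZIP partners (57.7%). For upstream genes it was 13 of 37 (35.1%) and for brakes 4 of 18 (22.2%). The targets that follow were picked after their values were seen, because they were higher in FT_1 than in FT_2 and FT_3. The collagenase gene MMP1 reached 84.9 FPKM in FT_1 against 10.1 and 11.2 in FT_2 and FT_3, and 98.3, 69.5 and 63.7 in WT cells. MMP3, another matrix protease gene, had 21.9, 1.2 and 0.89 in FT cells against 11.7–19.5 in WT cells, and the cytokine gene IL6 had 28.7, 0.77 and 0.35 in FT cells against 5.86–10.6 in WT cells. The cyclin gene CCND1 had 101, 42.7 and 43.8 in FT cells against 131–141 in WT cells, the FT libraries all below. Without FT_1 the log2 fold change was -2.69 for MMP1, -3.75 for MMP3, -3.72 for IL6 and -1.47 for CCND1, each past the threshold, and with FT_1 none of them passed it in edgeR. DESeq2 (-0.96) and limma in each of its 3 forms (-1.23 to -1.22) called CCND1 lower with FT_1 included. FOSL1, itself an AP-1 target, shared with CCND1 that FT_1 lay below the WT libraries and above FT_2 and FT_3.

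Heat shock and other genes that respond to the handling of cells are read beside immediate early genes because both can be induced while cells are harvested. Of 12 such genes 3 rose (25.0%, beside 20.1% of all tested genes) and 4 fell (33.3%, beside 18.9%), with a median log2 fold change of 0.06. Without FT_1, 5 rose (41.7%, beside 30.6%) and 4 fell (33.3%, beside 31.5%), and the median was 0.04. The cytosolic chaperone genes HSPA1A (1.24), HSPB1 (1.21) and DNAJB4 (1.0) rose, and HSP90AA1 (-0.93), the endoplasmic reticulum chaperone gene HSPA5 (-0.76) and the mitochondrial HSPD1 (-1.16) and HSPE1 (-1.55) fell. HSPH1 had an FPKM of 22.6 in FT_1 against 72.8 and 71.5 in FT_2 and FT_3, and 24.9–28.8 in WT cells. Of 11 housekeeping genes none rose and 4 fell (36.4%, beside 18.9% of all tested genes), PPIA (-1.07), YWHAZ (-0.92), SDHA (-0.98) and EEF1A1 (-0.50), with a median of -0.26, and without FT_1 1 rose (9.09%, beside 30.6%) and 6 fell (54.5%, beside 31.5%), with a median of -0.43. The call of EEF1A1 was lost without any 1 library but FT_1 (-0.60 to -0.47), with edgeR without a count filter (-0.50) or with the replicate number as a block (-0.50), and with limma without its filter (-0.66). The genes of both lists were named after their values were seen, and the part of handling in the levels of the 9 genes was not tested.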

How the data were processed

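Poly(A) RNA-seq libraries of 3 FT and 3 WT cultures were analysed from 1 table of 17663 genes on chromosomes 1 to 29. Per the methods, the authors used HISAT for alignment, Perl scripts to merge transcripts, and StringTie with edgeR for expression. The submitters' processing notes list HISAT2 2.0, StringTie 1.3.0, Bowtie 0.12.2 and the mouse build mm8, and the cattle build is not given in the sources used here. The deposited raw count per gene and the deposited FPKM (scaled by length and library total) were used as they stood. How reads of overlapping genes were shared is not given there. The methods name an HiSeq sequencer and the sample records a NovaSeq.

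Counts were tested with edgeR 4.0.16 in R 4.3.3 (TMM scaling, filterByExpr, glmQLFit and glmQLFTest, Benjamini-Hochberg adjusted p under 0.05 over 13482 genes), FT against WT, with no pairing. Standard errors are the log2 fold change over the square root of F. Depth was 48167642 to 69777641 counts per library. On simulated counts the fit recovered 200 of 200 changed genes. That simulation gave all libraries the same spread, with none standing apart as FT_1 did, so it does not show how the fit behaves with FT_1. Scripts also used Python 3.11.15.

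The members and lists were chosen with earlier results of these data known. Named genes are the 9 members and, from each list of partners, immediate early genes, upstream genes, brakes and targets, up to 4 with the smallest adjusted p that rose, up to 4 that fell, and the most abundant gene, as well as markers with a mean FPKM of at least 1 or the most abundant or defining of their list, and the 3 genes nearest in pattern to FOS, JUN, EGR1 and ATF3. The markers MYH11, UPK3B and BNC1 were named outside the rule for markers, and not every marker that meets it is named. Flanking genes follow from position, and others are said to have been named after their values were seen. Where 1 symbol had several entries, that with the highest mean FPKM was taken. With genes that have no count in a group set to the bound that 3 counts over that group allow, no median given here changed. Alternatives were DESeq2 1.42.0, RLE scaling, library totals only, no count filter, limma 3.58.1 on log2(FPKM + 1) with a mean FPKM of at least 0.5, on log2(FPKM + 0.1) and without that filter, the study's threshold (log2 fold change beyond 1 in size with an unadjusted p under 0.05), the replicate number as a block, and leaving out each library.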

Additional observations from a re-analysis of the deposited data

How the results depend on the processing

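The members' calls are counts of genes chosen on these values, so no stability is read from them. By edgeR 3 members were higher and 1 lower, beside 2714 and 2547 of 13482 genes. By DESeq2 2 were lower (2966 of 17663 genes), as by the study's threshold (1208 of 13482) and without FT_1 (4337 of 13765). Limma also had 2 lower, on log2(FPKM + 1) (3573 of 12247), on log2(FPKM + 0.1) (3529 of 12247) and without its FPKM filter (3622 of 17645). By the study's threshold 2 members were higher (1378 of 13482), as by limma without that filter (1744 of 17645), which did not call JUND. FOSB could not be fitted under limma's FPKM filter. The centre of all genes differed between fits. The median log2 fold change was 0.03 with TMM, -0.12 with library totals only and -0.12 with limma on log2(FPKM + 1), which changes the test and the gene filter as well (-0.03 without that filter), and 51.6%, 37.6% and 34.0% of the called genes were higher in FT cells (2714 higher and 2547 lower with TMM, 2049 and 3394, and 1837 and 3573). Without the FPKM filter limma called 1744 higher and 3622 lower. The study's threshold gave 1378 higher and 1208 lower. It left 2 partners higher and 2 lower, 8 other immediate early genes higher and 3 lower, and 8 upstream genes higher and 1 lower. Of brakes it left 3 higher and 1 lower, and of targets 5 higher and 1 lower. For targets limma called 6 higher in each form, with 6 lower with either pseudocount and 5 lower without the filter. The cause of these differences was not tested. Leaving out 1 library gave 1516–4215 genes higher and 1531–4337 lower, 2–4 members higher and 1–2 lower, 5–11 partners higher and 1–8 lower, 5–19 other immediate early genes higher and 3–13 lower, 7–20 upstream genes higher and 2–6 lower, 3–8 brakes higher and 3–7 lower, and 6–13 targets higher and 0–15 lower. The highest counts came without FT_1, and the lowest without other libraries. The 0 targets lower were found by edgeR without FT_2, WT_1, WT_2 or WT_3. Without FT_1 the sign turned for CCN2, IL6 and PLK2, whose log2 fold changes over the 6 fits that leave out 1 library ran from -0.25 (without FT_1) to 0.98, from -3.72 to 0.94 and from -2.71 to 0.96, and the cause was not tested. Other genes also changed sign, among them the member JUN (-0.20 to 0.14). Samples with the same replicate number were different fetuses, and their deviations correlated at -0.001, -0.020 and 0.018, so the numbers do not pair them. With the replicate number as a block 1838 genes were higher and 1741 lower. Among them 8 other immediate early genes were higher and 3 lower, and 7 targets were higher and 1 lower. Counts were low for FOSB, with 12 to 78 reads per library. The lowest count of any other member was 555, for ATF3 in FT_2. The part of depth in the FOSB values was not tested.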
